A study of Mus musculus with 24 samples.

Results

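The MHC class II presentation genes described here are the 8 genes H2-Aa, H2-Ab1, H2-Eb1, Cd74, H2-DMa, H2-DMb1, H2-DMb2 and Ciita, taken by symbol from 23337 gene symbols counted in macrophages. They were read in the total RNA and in the ribosome footprint count of every culture, and a gene missing from a footprint table was taken as 0. Of the 8 genes, 7 passed the filter on low counts in total RNA and 6 in footprints. H2-DMb2 failed both filters, and Ciita failed the one for footprints.

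MHC class II molecules display peptides from engulfed material on the cell surface for recognition by CD4+ T cells. H2-Aa and H2-Ab1 encode the alpha and beta chains of the mouse I-A molecule, and H2-Eb1 encodes the beta chain of I-E. Cd74 encodes the invariant chain, which fills the peptide groove in the endoplasmic reticulum and routes the complex to endosomes. H2-DMa, H2-DMb1 and H2-DMb2 encode chains of H2-DM, which exchanges the remnant of the invariant chain for peptide. Ciita encodes the coactivator that class II promoters need, and interferon-gamma is its best known inducer in macrophages.

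The study asked how functional APOBEC1, an RNA-editing cytidine deaminase, affects translation. Macrophages were grown from the bone marrow of Apobec1-/- (KO) and wild-type (WT) C57BL/6J mice aged 6 to 12 weeks, littermates or matched for age, for 7 days in 20 ng/mL of the growth factor M-CSF, and both genotypes were handled alike; the submitters checked F4/80 and Cd11b on the cells by flow cytometry. The 6 KO and 6 WT cultures gave 1 footprint (RPF, ribosome-protected fragment) library and 1 total RNA library each, 24 in all. Batch 3 held KO5, KO6, WT5 and WT6, batch 2 held KO2, KO3, KO4 and WT4, and batch 1 held KO1, WT1, WT2 and WT3. Whether separate mice gave the separate cultures is not in the labels, and p-values here cover only the spread of these samples, part of which may be technical.

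The 250 bases before the RefSeq start of 4 of the genes are shown first, since each holds the Y box or only its short core within 100 bases of the start (build GRCm38.p6, the patched mm10, 5′ to 3′ on the gene's strand). Capitals mark every match to CTGATTGG (the Y box bound by NF-Y), to its core ATTGG and to AGCAAC (an X box core), on either strand; a match on the other strand reads CCAAT. The windows are chr17:34287824-34288073 (minus strand) for H2-Aa, chr17:34305617-34305866 (plus strand) for H2-Eb1, chr17:34152941-34153190 (plus strand) for H2-DMb1 and chr17:34144999-34145248 (plus strand) for H2-DMb2.
H2-Aa: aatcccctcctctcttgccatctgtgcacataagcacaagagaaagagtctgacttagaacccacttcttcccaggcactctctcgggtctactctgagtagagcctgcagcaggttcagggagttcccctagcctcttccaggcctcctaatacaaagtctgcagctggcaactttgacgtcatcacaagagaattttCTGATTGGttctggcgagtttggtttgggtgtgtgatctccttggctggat
H2-Eb1: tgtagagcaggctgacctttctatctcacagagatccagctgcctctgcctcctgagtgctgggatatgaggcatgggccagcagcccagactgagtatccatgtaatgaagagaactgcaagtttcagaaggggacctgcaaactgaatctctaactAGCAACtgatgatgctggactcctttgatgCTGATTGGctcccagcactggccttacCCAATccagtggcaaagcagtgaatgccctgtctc
H2-DMb1: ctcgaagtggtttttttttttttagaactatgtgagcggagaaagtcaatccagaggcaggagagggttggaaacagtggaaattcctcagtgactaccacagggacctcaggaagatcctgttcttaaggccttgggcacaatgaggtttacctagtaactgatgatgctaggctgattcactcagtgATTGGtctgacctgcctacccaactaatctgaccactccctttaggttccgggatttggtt
H2-DMb2: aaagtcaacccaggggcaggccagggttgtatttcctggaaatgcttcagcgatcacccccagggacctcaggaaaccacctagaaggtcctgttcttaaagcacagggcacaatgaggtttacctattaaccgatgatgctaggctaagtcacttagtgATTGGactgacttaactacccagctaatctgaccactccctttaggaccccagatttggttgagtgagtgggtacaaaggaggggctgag
The Y box CTGATTGG began 51 bases before the H2-Aa start and 62 bases before the H2-Eb1 start, and it occurs in 4.1% of 32851 RefSeq promoter windows that also take in 50 bases after the start. Its core ATTGG, which lies inside CTGATTGG, began 61 bases before the H2-DMb1 start and 90 bases before the H2-DMb2 start, and 37.4% of the windows hold it. AGCAAC was found 92 bases before the H2-Eb1 start, and 14.8% of the windows hold it. H2-DMb1 and H2-DMb2 are neighbours whose promoter windows agree at 208 of 247 aligned bases (84.2%). For H2-DMa the table gave 2 starts, not printed here: the window before 1 of them held no match and the other held ATTGG alone, 198 bases before the start. No window of Cd74, H2-Ab1 or Ciita is given here. A match is a string of letters, not a measured binding site.

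The genes lie in the class II region of chromosome 17, except Ciita at chr16:10480014-10531064 and Cd74 at chr18:60803849-60812652. In the chromosome 17 region, H2-DMa spans 34119693-34139101, H2-DMb2 34143229-34151553, H2-DMb1 34153191-34160229, H2-Ab1 34263227-34269418, H2-Aa 34282744-34287823 and H2-Eb1 34305867-34316674.

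In genes, total RNA libraries had 5077478 to 12059361 counts. Footprint libraries were shallower, with as few as 29561 (WT6) and 90773 (KO6) and as many as 3714912 (WT4), and 8 of the 12 were under 1000000. A count of 3 corresponds to 0.248 to 0.609 CPM (each library's counts brought to 1000000 with its scaling factor) in total RNA, against 82.2 CPM in the WT6 and 32.5 CPM in the KO6 footprint library. WT6 footprint values of single genes therefore rest on few reads, such as 4 for H2-Aa, 3 for H2-Ab1 and 24 for Cd74. Apobec1 footprints checked the genotype labels: they lay at 0 to 24.9 CPM in KO and 61.0 to 104.6 CPM in WT cultures, without overlap, while Apobec1 total RNA was at 605 to 1278 CPM in KO and 313 to 475 CPM in WT cultures. The macrophage label was borne by its defining genes: Emr1, which encodes F4/80, had 7586 counts or more and Itgam, which encodes Cd11b, 2957 or more in every total RNA library.

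Batch 3 cultures carried the least class II RNA and batch 2 cultures the most. All 7 tested genes were lower in batch 3 than in batch 2 in total RNA (edgeR's quasi-likelihood test, Benjamini-Hochberg adjusted p under 0.05 over 10942 genes), with every batch 3 culture below every batch 2 culture. Among all genes 49.2% were called in that contrast and 24.5% were called lower, and 20.7% had every batch 3 culture lower. The 7 genes had a median log2 difference of -3.01, against 0.01 over all genes. Against batch 1, batch 3 was lower in 4 of the 7, where 45.3% of all genes were called and 22.3% called lower. In bulk samples, fewer cells of a type and less RNA per cell cannot be told apart.

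Ciita, the coactivator, stood at 3.81, 5.43, 6.05 and 10.9 CPM in the 4 batch 3 cultures, 27.2, 31.6, 53.4 and 56.0 CPM in the 4 of batch 2 and 9.21, 9.93, 10.6 and 15.4 CPM in the 4 of batch 1. The batch 2 cultures were above all others, and batches 3 and 1 overlapped. Its batch 3 over batch 2 log2 difference was -2.75 (SE 0.35, edgeR adjusted p = 7.74e-05), its batch 2 over batch 1 difference was 1.98 (edgeR adjusted p = 0.00293), and its batch 3 over batch 1 difference of -0.77 missed the threshold (edgeR adjusted p = 0.0924).

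H2-Aa, the I-A alpha chain gene, had 28.9, 45.0, 46.8 and 54.3 CPM in the 4 batch 3 cultures, 179.7, 189, 545 and 559 CPM in the 4 of batch 2 and 100.3, 124, 124 and 190.4 CPM in the 4 of batch 1. Batch 3 was below both other batches in every culture, while batch 2 overlapped batch 1 because KO3 and WT4 lay near the highest batch 1 culture. H2-Aa was 8.41-fold lower in batch 3 than in batch 2 (log2 difference -3.07, SE 0.49, edgeR adjusted p = 7.65e-04) and 3.08-fold lower than in batch 1 (edgeR adjusted p = 0.016 with all cultures and 0.0511 without WT5). H2-Ab1, the I-A beta chain gene, had 37.0, 41.1, 53.5 and 54.0 CPM in the 4 batch 3 cultures, 170.2, 269, 502 and 504 CPM in the 4 of batch 2 and 144, 155, 157 and 249 CPM in the 4 of batch 1. It had the same order of batches, with log2 differences of -3.01 against batch 2 (edgeR adjusted p = 1.61e-04) and -1.90 against batch 1 (edgeR adjusted p = 0.00193). H2-Eb1, the I-E beta chain gene, had 21.5, 24.8, 27.7 and 30.2 CPM in the 4 batch 3 cultures, 115, 142, 361 and 377 CPM in the 4 of batch 2 and 81.5, 104, 104 and 148 CPM in the 4 of batch 1. Here too the batch 3 cultures did not overlap the others, at log2 differences of -3.26 against batch 2 (edgeR adjusted p = 3.32e-04) and -2.07 against batch 1 (edgeR adjusted p = 0.00337). The 2 genes of this group with a Y box above, H2-Aa and H2-Eb1, and H2-Ab1 differed between batch 3 and batch 2 by 8.08- to 9.55-fold.

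Cd74, the invariant chain gene, had 62.0, 109, 109 and 128 CPM in the 4 batch 3 cultures, 629, 874, 1932 and 1933 CPM in the 4 of batch 2 and 268, 324, 334 and 445 CPM in the 4 of batch 1. No batch overlapped another for Cd74. It was 13.6-fold lower in batch 3 than in batch 2 (log2 difference -3.77, SE 0.44, edgeR adjusted p = 9.43e-05), 3.30-fold lower in batch 3 than in batch 1 (edgeR adjusted p = 0.0057) and 4.12-fold higher in batch 2 than in batch 1 (edgeR adjusted p = 0.0106).

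The H2-DM genes moved less. H2-DMa, the alpha chain gene of the peptide exchange factor, had 7.48, 9.81, 10.3 and 11.8 CPM in the 4 batch 3 cultures, 19.7, 23.9, 24.4 and 33.1 CPM in the 4 of batch 2 and 10.2, 12.2, 12.4 and 13.3 CPM in the 4 of batch 1. Batch 2 stood above both other batches, which overlapped. Its log2 difference was -1.38 between batches 3 and 2 (SE 0.18, edgeR adjusted p = 4.59e-05), -0.28 between batches 3 and 1 (edgeR adjusted p = 0.228) and 1.11 between batches 2 and 1 (edgeR adjusted p = 0.0015). H2-DMb1, a beta chain gene of that factor, had 19.8, 22.9, 24.3 and 37.8 CPM in the 4 batch 3 cultures, 41.3, 44.4, 55.0 and 55.2 CPM in the 4 of batch 2 and 26.9, 27.1, 29.0 and 29.7 CPM in the 4 of batch 1. WT5 lay above every batch 1 culture and the other 3 batch 3 cultures below them, while all 4 were below batch 2. The log2 difference of H2-DMb1 was -0.93 between batches 3 and 2 (SE 0.18, edgeR adjusted p = 8.72e-04) and -0.09 between batches 3 and 1 (edgeR adjusted p = 0.696). H2-DMb2 had 0 to 3 counts in a total RNA library, 19 in all, against 133 to 399 for H2-DMb1. Reads that fit both copies may have been dropped as not unique, so the counts of the pair are uncertain.

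**Figure D1:**
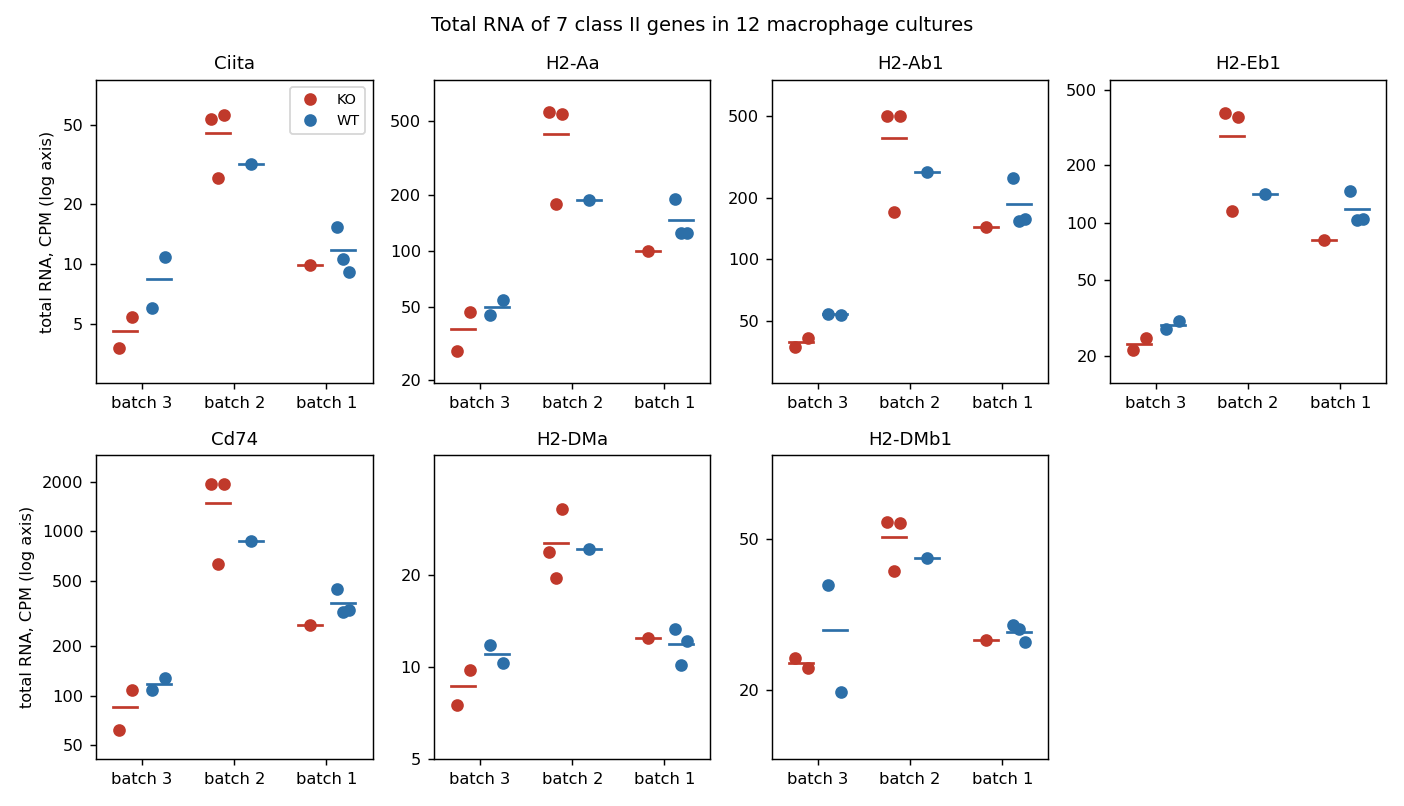
Total RNA in CPM (log axis) of the 7 class II genes that passed the filter, 1 point per culture, KO in red left of WT in blue within each batch, with a line at the mean of each genotype. All 7 genes are lower in batch 3 than in batch 2, and Cd74 spans 62.0 to 1933 CPM.

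Between batches 2 and 1, 4 of the 7 genes were called higher in batch 2 (Cd74, Ciita, H2-DMa and H2-DMb1), where 23.5% of all genes were called and 12.7% called higher. The 3 chain genes had log2 differences of 1.45 (H2-Aa), 1.12 (H2-Ab1) and 1.18 (H2-Eb1), with edgeR adjusted p of 0.0688, 0.0636 and 0.0951. KO3 had less RNA of the chain genes and of Cd74 than KO2 and KO4 of its batch, and all 7 genes were called without KO3, as they were with DESeq2. Over the fits that each left out 1 culture, 1345 to 3041 of all genes and 4 to 7 of the class II genes were called.

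In footprints, too, the chain genes and Cd74 were lowest in batch 3. In batch 3 against batch 2, 4 of the 6 tested genes were called lower (22.5% of 7208 genes were called and 11.7% called lower), and each of the 4 had every batch 3 culture below every batch 2 culture, as did 14.8% of all genes. Cd74 footprints were 401, 434, 657 and 911 CPM in the 4 batch 3 cultures, 2271, 2285, 5236 and 6884 CPM in the 4 of batch 2 and 1641, 2299.9, 2627 and 2799.6 CPM in the 4 of batch 1. Its footprints did not overlap between batch 3 and the others, at log2 differences of -2.89 against batch 2 (SE 0.53, edgeR adjusted p = 0.00495) and -1.90 against batch 1 (edgeR adjusted p = 0.0282). H2-Aa footprints were 109.5, 116, 146 and 152 CPM in the 4 batch 3 cultures, 416, 452, 1122 and 1352 CPM in the 4 of batch 2 and 481, 488, 512 and 649.8 CPM in the 4 of batch 1. Batch 3 again lay below the rest, with a log2 difference of -2.54 against batch 2 (SE 0.51, edgeR adjusted p = 0.00768).

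H2-Ab1 footprints were 82.2, 97.9, 119 and 150.2 CPM in the 4 batch 3 cultures, 354, 406, 936 and 987 CPM in the 4 of batch 2 and 369.7, 441, 465 and 646 CPM in the 4 of batch 1. The batch 3 over batch 2 log2 difference of H2-Ab1 was -2.46 (edgeR adjusted p = 0.0101), without overlap. H2-Eb1 footprints were 46.9, 51.3, 65.1 and 109.5 CPM in the 4 batch 3 cultures, 207, 227, 571 and 706 CPM in the 4 of batch 2 and 202, 335, 384 and 405 CPM in the 4 of batch 1. Its difference was -2.87 (SE 0.72, edgeR adjusted p = 0.0216), and WT6, with 4 reads, was the highest batch 3 culture. Against batch 1, the same 4 genes were lower in batch 3 by 1.90 to 2.62 on the log2 scale (edgeR adjusted p of 0.0212 to 0.0406; 20.8% of all genes were called and 11.2% called lower). The calls depended on the shallow libraries. Without KO6 and WT6 the 4 differences against batch 2 were -2.41 to -3.08 with edgeR adjusted p of 0.0511 to 0.0799, and those against batch 1 were -1.83 to -2.84 with adjusted p of 0.0885 to 0.128. Leaving out KO5 alone left 1 of the genes called against batch 2 and 0 against batch 1.

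The H2-DM genes were not called between batches in footprints. Batch 3 libraries held only 1 to 10 reads of H2-DMa and 1 to 5 of H2-DMb1, so their batch 3 levels are uncertain. H2-DMa footprints were 21.7, 23.3, 27.4 and 46.9 CPM in the 4 batch 3 cultures, 39.5, 48.6, 54.6 and 59.9 CPM in the 4 of batch 2 and 28.2, 36.3, 36.3 and 42.9 CPM in the 4 of batch 1, at a batch 3 over batch 2 log2 difference of -0.71 (edgeR adjusted p = 0.139). H2-DMb1 footprints were 9.32, 21.7, 23.5 and 27.4 CPM in the 4 batch 3 cultures, 12.8, 18.8, 19.0 and 20.7 CPM in the 4 of batch 2 and 20.8, 22.0, 31.5 and 36.3 CPM in the 4 of batch 1, with all batches overlapping except batch 2 against batch 1. Ciita footprints were 0, 0, 0 and 9.39 CPM in the 4 batch 3 cultures, 16.0, 27.8, 31.6 and 35.6 CPM in the 4 of batch 2 and 3.30, 6.63, 11.4 and 11.5 CPM in the 4 of batch 1. Batch 2 lay above batch 1, and KO5, KO6 and WT6 held no read, where a count of 3 corresponds to 14.0, 32.5 and 82.2 CPM, so batch 3 cannot be placed against batch 1 at this depth. Without KO6 and WT6, Ciita was called lower in batch 3 than in batch 2 (log2 difference -2.66, edgeR adjusted p = 0.0342). That call rests on 0 reads in KO5 and 2 in WT5. In batch 2 against batch 1, 0 of the 6 tested genes were called in footprints by edgeR (15.4% of all genes were), with 1 at an unadjusted p under 0.05, and DESeq2 also called 0. The Cd74 difference there was 0.99 (edgeR adjusted p = 0.255). The chain genes had 0.39 (H2-Aa), 0.40 (H2-Ab1) and 0.26 (H2-Eb1), with edgeR adjusted p of 0.613 to 0.820, and without KO1 they turned to -0.026, -0.11 and -0.58. H2-DMb2 had 0 or 1 footprint read per library.

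**Figure D2:**
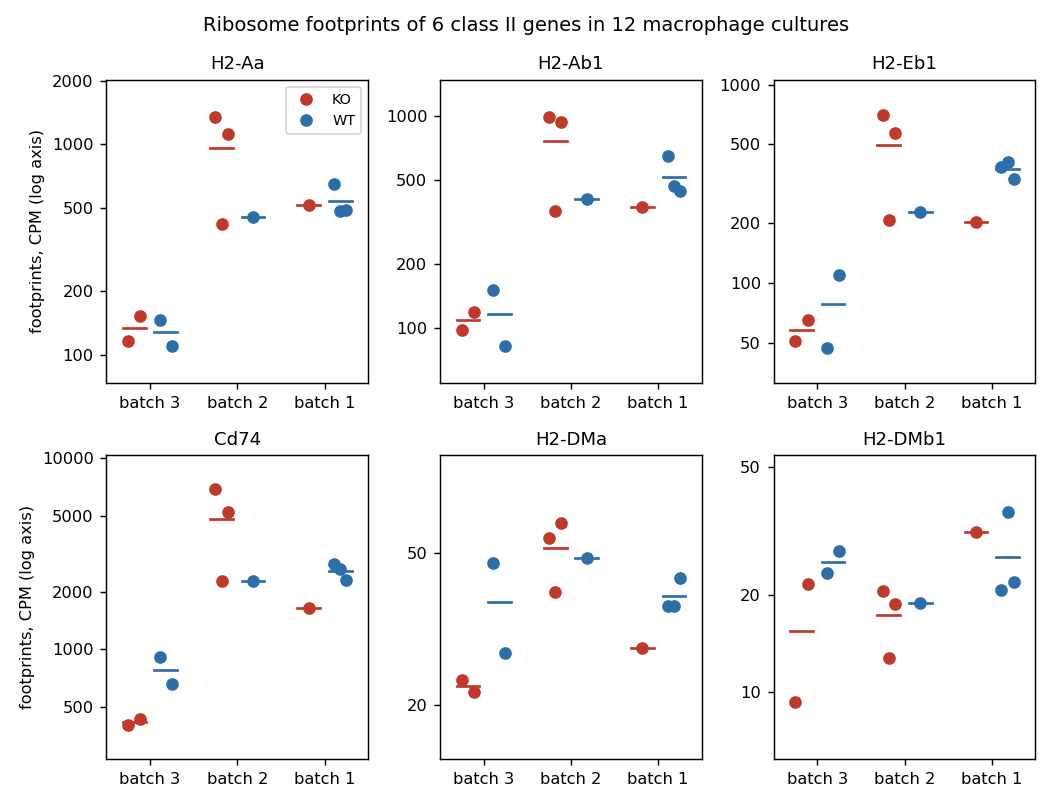
Ribosome footprints in CPM (log axis) of the 6 class II genes that passed the filter, 1 point per culture, KO in red left of WT in blue within each batch, with a line at each genotype's mean. Cd74, H2-Aa, H2-Ab1 and H2-Eb1 are lowest in batch 3. H2-DMb1 lies between 9.32 and 36.3 CPM, with 1 to 5 reads in each batch 3 library.

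Most class II genes that could be tested carried more footprints per RNA than the typical gene. Relative to total RNA, footprints were higher for 5 of the 6 genes tested and lower for H2-DMb1 (edgeR's quasi-likelihood test over all 24 libraries, averaged over genotypes and batches), in a contrast that called 71.4% of 7203 genes, 34.7% higher and 36.7% lower. The log2 value relative to the typical gene was 2.31 for Cd74, which ranked 22 of 7203 genes, and 1.56 for H2-Aa at rank 116, 1.43 for H2-DMa at rank 157, 1.23 for H2-Ab1 at rank 293 and 1.15 for H2-Eb1 at rank 365. Coding sequence was counted for footprints and an unstated region for RNA, so a gene's noncoding length may enter its value. That share was not tested.

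**Figure D3:**
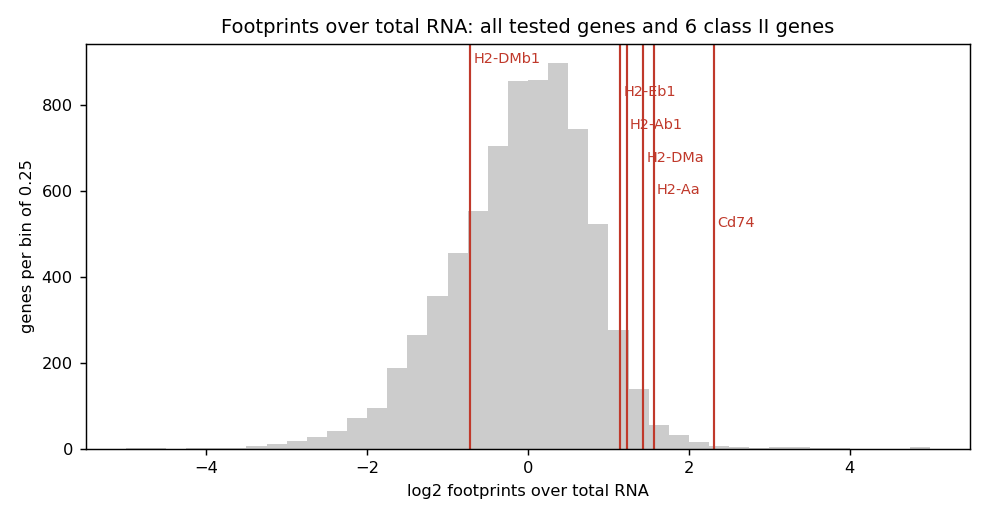
Histogram of log2 footprints over total RNA for the 7203 genes tested in both (bins of 0.25, values beyond -5 or 5 in the end bins), with red lines at the 6 class II genes. Cd74 lies in the upper tail at 2.31 and H2-DMb1 below the centre at -0.72.

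The Cd74 ratio of footprint to RNA CPM was 3.98, 5.14, 6.47 and 8.34 in the 4 batch 3 cultures, 2.60, 2.71, 3.56 and 3.63 in the 4 of batch 2 and 6.12, 6.29, 6.88 and 8.12 in the 4 of batch 1. It was above 1 in every culture and lowest in batch 2, and the fitted value had SE 0.26 and an edgeR adjusted p of 4.39e-07. For H2-Aa the ratio was 2.02, 3.23, 3.25 and 4.03 in the 4 batch 3 cultures, 2.06, 2.32, 2.39 and 2.42 in the 4 of batch 2 and 3.41, 3.88, 3.93 and 5.11 in the 4 of batch 1 (fitted SE 0.31, edgeR adjusted p = 2.17e-04). H2-Ab1 had ratios of 1.54, 2.65, 2.78 and 2.91 in the 4 batch 3 cultures, 1.51, 1.86, 1.96 and 2.08 in the 4 of batch 2 and 2.57, 2.59, 2.80 and 3.01 in the 4 of batch 1 (edgeR adjusted p = 7.18e-04). In both I-A chain genes every culture was again above 1.

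H2-Eb1 ratios were 1.70, 2.39, 2.63 and 3.62 in the 4 batch 3 cultures, 1.58, 1.60, 1.80 and 1.87 in the 4 of batch 2 and 2.48, 2.60, 3.21 and 3.92 in the 4 of batch 1 (edgeR adjusted p = 0.0166). In this fit, which does not pair the libraries of a culture, the H2-Eb1 call was lost without KO5 (edgeR adjusted p = 0.0679), KO6 (0.0532) or WT5 (0.0711). With culture as a block and all cultures, the H2-Eb1 value was 1.15 (SE 0.13, edgeR adjusted p = 1.38e-11). H2-DMa, the alpha chain of the exchange factor, had ratios of 2.21, 2.67, 3.11 and 3.98 in the 4 batch 3 cultures, 1.81, 2.00, 2.01 and 2.28 in the 4 of batch 2 and 2.27, 2.72, 3.52 and 3.57 in the 4 of batch 1 (edgeR adjusted p = 4.93e-08). All 5 genes with a higher value had a ratio above 1 in each of the 12 cultures, which 13.5% of all genes did. The H2-DMa ratio of WT6 rests on 1 footprint read. H2-DMb1, the partner chain, had ratios of 0.384, 0.621, 0.947 and 1.38 in the 4 batch 3 cultures, 0.31, 0.341, 0.375 and 0.427 in the 4 of batch 2 and 0.698, 0.819, 1.16 and 1.25 in the 4 of batch 1, at a fitted log2 value of -0.72 (SE 0.18, edgeR adjusted p = 6.51e-04). Batch 2 cultures were below those of batch 1, KO5 of batch 3 lay among those of batch 2, and KO1, WT2 and WT6 were above 1. The H2-DMb1 ratio rests on 2 footprint reads in KO5 and on 1 in WT6. Ciita, which failed the footprint filter, had ratios of 0, 0, 0 and 1.55 in the 4 batch 3 cultures, 0.589, 0.592, 0.635 and 0.88 in the 4 of batch 2 and 0.31, 0.668, 0.741 and 1.25 in the 4 of batch 1, with the zeros in libraries that held no Ciita footprint. In the fit with no filter on low counts its log2 value was -0.48 (edgeR adjusted p = 0.471), and without cultures under 1000000 footprint counts it was called lower than the typical gene at -0.48 (edgeR adjusted p = 0.0188). The 2 chains of H2-DM stood on opposite sides of the typical gene, and the part of reads shared with H2-DMb2 in this was not tested.

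**Figure D4:**
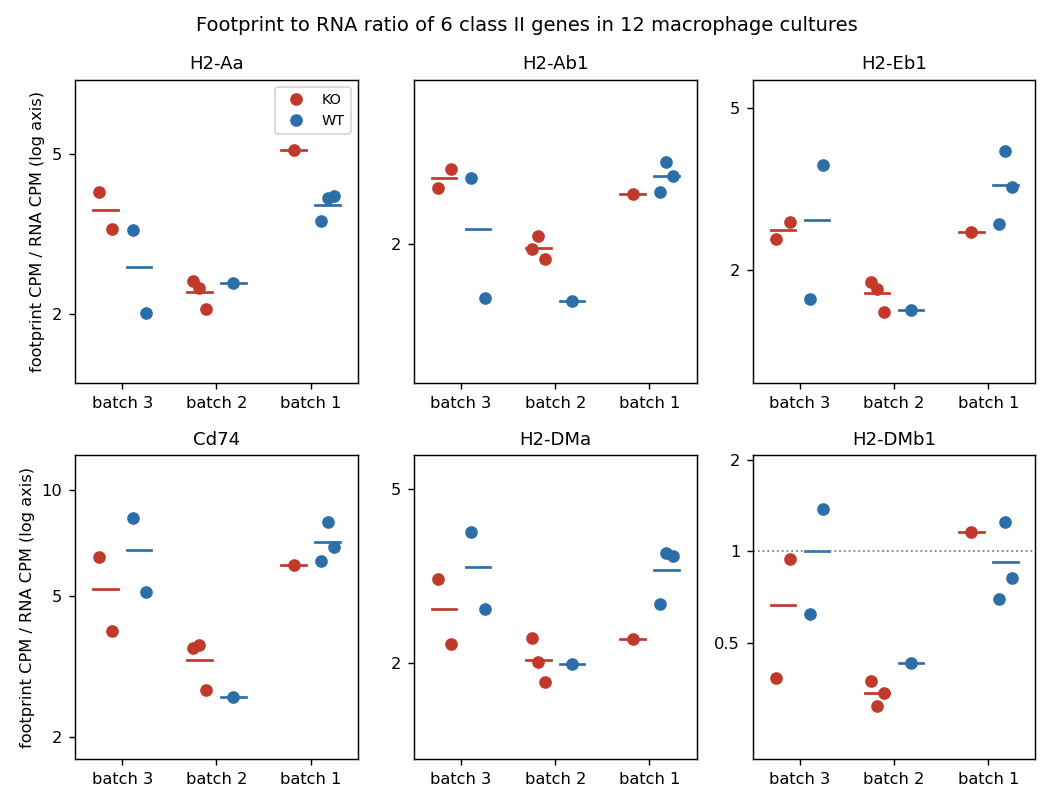
Footprint CPM divided by total RNA CPM (log axis) for 6 class II genes, 1 point per culture, KO in red left of WT in blue within each batch, lines at genotype means and a dotted line at 1 where it falls in range. The 4 batch 2 cultures have ratios of 2.60 to 3.63 for Cd74, against 6.12 to 8.12 in batch 1.

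Batch 2, with the most class II RNA, had lower footprint to RNA ratios than batch 1. The batch 2 and batch 1 ratios did not overlap for Cd74, H2-Aa, H2-Ab1, H2-Eb1 or H2-DMb1, in each case with batch 2 lower, as in 17.9% of all genes. In the fit with no pairing of a culture's libraries, all 6 genes had a negative batch 2 over batch 1 difference, -0.54 to -1.29 on the log2 scale, and only H2-DMb1 was called (edgeR adjusted p = 0.009; 16.7% of all genes were called and 8.41% called lower). That call was lost without KO1 (edgeR adjusted p = 0.112) or WT4 (0.0580). With culture as a block, which pairs the libraries of a culture, 5 of the 6 were called lower: Cd74 at -1.12, H2-Aa at -0.90, H2-Ab1 at -0.66, H2-Eb1 at -0.78 and H2-DMb1 at -1.20, while H2-DMa had -0.47 (edgeR adjusted p = 0.129) and 2284 genes were called. In batch 3 against batch 2, 0 of the 6 genes were called by edgeR and 0 had an unadjusted p under 0.05 (9.97% of all genes were called); with the culture block Cd74 was called at 0.97. In batch 3 against batch 1, 0 of the 6 were called by edgeR and 0 had an unadjusted p under 0.05 (1.14% of all genes were called).

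Neither RNA nor footprints of a class II gene differed between genotypes past the threshold. In total RNA, edgeR called 0 of 7 genes (0.0183% of 10942 genes were called), with log2 KO over WT differences of -0.16 to 0.00 and 0 at an unadjusted p under 0.05. In footprints it called 0 of 6 (0.0832% of 7208), with differences of -0.22 to 0.41. In footprints relative to RNA it called 0 of 6 (0.0139% of 7203), with differences of -0.10 to 0.42. Both had 0 genes at an unadjusted p under 0.05, and DESeq2 and limma voom called 0 of the class II genes in all 3 comparisons. The intervals are wide: the 95% interval of the Cd74 RNA difference ran -0.93 to 0.69, or 0.526- to 1.62-fold, which takes in moderate differences in either direction. The fit relative to RNA did not pair the libraries of a culture. With culture as a block, which pairs them, its Cd74 difference was -0.059 (SE 0.13, against 0.61 unpaired). For H2-Aa it was 0.16 (SE 0.12, against 0.64), and for H2-DMa the SE was 0.22 against 0.26. All 6 genes had an edgeR adjusted p of 0.999 with the block.

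Ciita RNA was 3.81, 18.5 and 56.0 CPM as the lowest, median and highest of the 6 KO cultures, against 6.05, 10.7 and 31.6 CPM in the 6 WT cultures. H2-Aa RNA was 28.9, 140.0 and 559 CPM as the lowest, median and highest of the 6 KO cultures, against 45.0, 124 and 190.4 CPM in the 6 WT cultures. Cd74 RNA was 62.0, 449 and 1933 CPM as the lowest, median and highest of the 6 KO cultures, against 109, 329 and 874 CPM in the 6 WT cultures. For these genes the KO cultures spanned the WT range on both sides, with KO2 and KO4 highest and KO5 lowest.

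H2-Ab1 RNA was 37.0, 157 and 504 CPM as the lowest, median and highest of the 6 KO cultures, against 53.5, 156 and 269 CPM in the 6 WT cultures. H2-Eb1 RNA was 21.5, 98.2 and 377 CPM as the lowest, median and highest of the 6 KO cultures, against 27.7, 104 and 148 CPM in the 6 WT cultures. H2-DMa RNA was 7.48, 16.1 and 33.1 CPM as the lowest, median and highest of the 6 KO cultures, against 10.2, 12.0 and 24.4 CPM in the 6 WT cultures. H2-DMb1, whose groups also overlapped, had 22.9, 34.2 and 55.2 CPM as the lowest, median and highest of the 6 KO cultures, against 19.8, 29.4 and 44.4 CPM in the 6 WT cultures. In footprints Cd74 had 401, 1963 and 6884 CPM as the lowest, median and highest of the 6 KO cultures, against 657, 2285 and 2799.6 CPM in the 6 WT cultures. The H2-DM genes had the narrowest intervals, and the KO over WT RNA difference of H2-DMa was -0.09 (95% interval -0.42 to 0.25).

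**Figure D5:**
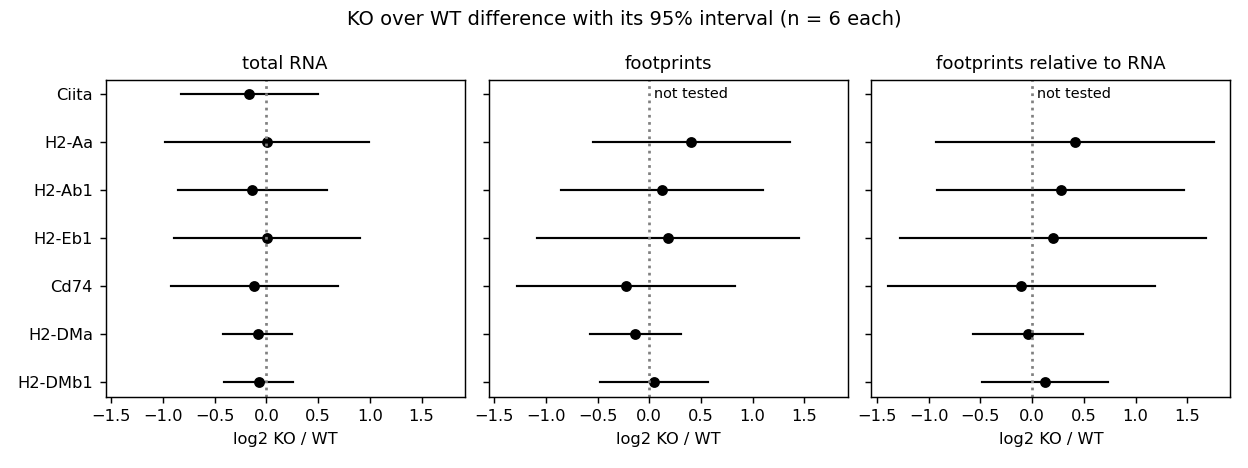
Log2 KO over WT difference (points) with its 95% interval (lines) for each class II gene in total RNA, footprints and footprints relative to RNA, from fits with batch as a term over 6 KO and 6 WT cultures; Ciita was not tested in footprints. Those relative to RNA are from a fit that does not pair the libraries of a culture. Every interval crosses 0.

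The sign of the genotype difference changed between batches. Cd74 RNA differed by -0.52 in batch 3 (2 KO and 2 WT cultures), by 0.60 in batch 2 (3 KO and 1 WT) and by -0.44 in batch 1 (1 KO and 3 WT), as KO minus WT in mean log2 CPM. H2-Aa RNA differed by -0.42, 1.01 and -0.51 in batches 3, 2 and 1, and H2-Eb1 RNA by -0.32, 0.82 and -0.52. Cd74 footprints differed by -0.89, 0.94 and -0.64. The test of genotype by batch called 0 of the class II genes with edgeR, with adjusted p of 0.557 to 0.825 in RNA, where it called 108 of all genes, and 0.517 to 0.820 in footprints, where it called 145; 0 members had an unadjusted p under 0.05 in either. With only the 4 cultures whose footprint libraries held over 1000000 counts, the genotypes are set apart by KO2 and KO4 against WT4 alone. That fit, with 1 residual degree of freedom, called 5 class II genes higher in KO RNA (H2-Aa at 1.55, H2-Eb1 at 1.38, Cd74 at 1.15, H2-Ab1 at 0.91 and Ciita at 0.79) and 4 in footprints, among 2740 and 1413 genes called, and it leaves out KO3, whose chain gene RNA was below that of WT4. In the authors' deposited tables, which do not state the direction of their fold change, the p-values of the class II genes were 0.175 to 0.848 for 8 of them and 0.157 to 0.834 for 7.

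Other gene groups also differed between batches, beside 24.5% of all genes called lower in batch 3 than in batch 2 and 12.7% called higher in batch 2 than in batch 1. All 13 tested macrophage markers, among them the complement genes C1qb (log2 difference -3.88) and C1qc (-3.85), the engulfment receptor gene Mertk (-3.004) and the IgG receptor gene Fcgr1 (-2.64), were lower in batch 3 than in batch 2 in total RNA. Their summed level was 15589 to 25495 CPM in batch 3, 31821 to 51526 CPM in batch 2 and 24395 to 31836 CPM in batch 1. All 14 tested genes of the interferon-gamma response list were also lower in batch 3 than in batch 2, among them Cxcl16 (-2.61), a chemokine, and the transcription factors Irf1 (-1.27) and Irf8 (-1.002). The 14 genes had a median log2 difference of -1.11, beside -3.01 for the class II genes. In batch 2 against batch 1, 8 of those 14 genes were higher and 0 lower, such as Socs1 (1.28), a feedback inhibitor, and Gbp2 (0.94), a GTPase.

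Markers of other antigen-presenting cells were low but moved in part with batch. Among all genes in total RNA, 49.2% were called in batch 3 against batch 2, 24.5% of them all as lower. Against batch 1, 45.3% were called in batch 3 and 22.3% called lower. In batch 2 against batch 1, 23.5% were called and 12.7% called higher. Dendritic cell markers summed to 35.9 to 41.3 CPM in batch 3, 83.2 to 167 CPM in batch 2 and 158 to 203 CPM in batch 1, and the 6 tested of 16 listed were all lower in batch 3 than in batch 2. Their defining genes Flt3, Zbtb46 and Xcr1 reached at most 15, 7 and 10 counts in a total RNA library. In batch 2 against batch 1, the endocytic receptor gene Ly75 (2.37) and the transcription factor gene Irf4 (1.01) were higher, and the integrin gene Itgax, shared by dendritic cells and macrophages, was lower (-1.76). B cell markers summed to 3.18 to 7.45 CPM in batch 3, 11.2 to 22.2 CPM in batch 2 and 10.5 to 14.0 CPM in batch 1, with Cd79a at 0 or 1 count per library. Of 10 listed 2 were tested, and both were lower in batch 3 than in batch 2. Against batch 1, 1 of the 2 was lower in batch 3 and 1 was higher in batch 2. Neutrophil markers differed in that the median of their sum was highest in batch 3. The sum was 442 to 591 CPM (median 530) in batch 3, 153 to 591 CPM (median 190) in batch 2 and 57.6 to 67.0 CPM (median 62.4) in batch 1. Of 10 tested, 5 were higher and 2 lower in batch 3 than in batch 2. Against batch 1, 7 were higher and 2 lower in batch 3, with a median log2 difference of 6.58. In batch 2 against batch 1, 8 were higher and 0 lower (median 5.62), the direction of the class II genes. The Y-linked gene Ddx3y had 0 or 1 count in batch 3 RNA libraries and at least 374 elsewhere, and Xist had 172 to 386 counts in batch 3 and 2 to 11 elsewhere, so batch 3 and the sex of the mice cannot be told apart. The part of these differences in the class II result was not tested.

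Of 7 tested transcription factors of class II promoters, 2 were lower in batch 3 than in batch 2, Rfx5 (-0.63), an X box factor, and Nfyc (-0.34), a subunit of the Y box factor NF-Y, and 0 were higher. In batch 2 against batch 1, Nfyc (0.61) and Rfx5 (0.50) were higher and Creb1 (-0.41), which binds the X2 box, was lower. Among all genes 24.5% were called lower in batch 3 than in batch 2, and 23.5% were called in either direction between batches 2 and 1. Among 8 genes of class II processing and turnover, 4 were lower and 1 higher in batch 3 than in batch 2, where 49.2% of all genes were called. March1, a ubiquitin ligase that removes class II from the surface, was at -1.71, the thiol reductase Ifi30 at -1.42, the invariant chain protease Lgmn at -1.13 and the ligase March8 at 0.57. Of 7 tested costimulatory genes, 4 were lower, namely Cd40 (-3.48), Cd86 (-2.02), Icosl (-1.18) and Icam1 (-0.70), and 0 higher. Class I presentation genes were lower in 8 of 12, with a median of -0.51, beside 0.01 and the 24.5% called lower over all genes.

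Between genotypes, 0 genes of these lists were called in total RNA or in footprints relative to RNA by edgeR, and in footprints 2 neutrophil markers, S100a8 (-1.28) and Mmp9 (-1.50), were lower in KO. That footprint contrast called 6 of 7208 genes, and only 1 gene without WT4 or with no batch term, so the 2 calls did not both hold there. In footprints over RNA, 11 of 12 class I genes and 9 of 13 macrophage markers were higher than the typical gene and 0 lower (34.7% of all genes were higher and 36.7% lower), with Pdia3 at 1.69 and Cd68, a lysosomal glycoprotein, at 2.27 beside Cd74 at 2.31. Of 7 processing genes 5 were higher and 1 lower, with Ifi30 at 1.40, Ctsb at 0.88, Lgmn at 0.85 and Ctss, the cathepsin that trims the invariant chain, at 0.62. Of 4 other class II loci 1 was tested, H2-Ob, a chain gene of the H2-DM inhibitor H2-O, with 6 to 47 counts per total RNA library and no call between batches 3 and 2 (log2 difference -0.74, edgeR adjusted p = 0.218). H2-Ea-ps, the disabled alpha chain gene of I-E in this strain, had 1 count over all 12 total RNA libraries and 0 in footprints.

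The 7 tested genes varied together across cultures, H2-DMb1 least closely, as a description over 12 cultures that share batches. Each gene's log2 CPM correlated with the mean of the other 6 at 0.99 for Cd74, 0.98 for H2-Aa, 0.96 for Ciita and for H2-Ab1, 0.95 for H2-Eb1, 0.93 for H2-DMa and 0.84 for H2-DMb1. After each batch was centred, the values were 0.96 for H2-Ab1 and for Cd74, 0.93 for H2-Aa and for H2-Eb1, 0.80 for Ciita, 0.72 for H2-DMa and 0.43 for H2-DMb1. Many genes outside the group did as well as some members. Of 10935 such genes, 601 correlated with the other 6 members more than H2-DMb1 did, and 43 more than H2-DMa did. With batches centred these numbers were 1744 for H2-DMb1, 294 for H2-DMa and 104 for Ciita. Among 10935 other genes, the pattern of the group was most like that of Gtpbp1 (0.98), Ppp1r9b (0.98), Irf5 (0.97), Ifnar1 (0.97), Tmem51 (0.97), H2-Q8 (0.97), Lgmn (0.96), Trex1 (0.96), Otud5 (0.96) and Dpep2 (0.96). With batches centred the 10 most alike were Eef2k (0.95), Khnyn (0.95), Trf (0.95), Med7 (0.93), Tmem150b (0.92), Rcbtb2 (0.92), Zfp451 (0.92), Pltp (0.91), Snord35a (0.91) and Ifngr1 (0.91), a chain of the interferon-gamma receptor.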

How the data were processed

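The authors deposited whole-number read counts per gene symbol for each library, not normalized; per the file names the footprint counts were limited to coding sequence, and the region counted for total RNA is not given in the sources used here. Per the submitters' processing notes the mouse build was mm10 and the tools were TopHat2 2.1.0, Bowtie 1.1.2, Cufflinks 2.2.1, Trim Galore, HTSeq, DESeq2 and DESeq, of which no order is recorded. Likewise not given are strandedness and the annotation release. The authors also deposited 2 result tables that hold, per the file headers, a mean scaled count (a signal value), a log2 fold change, a test score and p-values; only their p-values are quoted. Summary lines of reads not counted for a gene stayed out of library sizes; reads with no single alignment made up 27.8% to 51.2% in total RNA and 45.6% to 80.1% in footprints, and reads outside counted features averaged 10.1% and 6.50%.

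The main test was the robust quasi-likelihood test of edgeR 4.0.16 in R 4.3.3, on genes kept by filterByExpr (minimum count 10), with TMM factors, genotype and batch as terms, and Benjamini-Hochberg adjustment over all genes tested at a threshold of 0.05. Footprints relative to RNA were tested in a single model over 24 libraries as molecule by genotype and molecule by batch terms. CPM used TMM factors, and log2 CPM a prior count of 2. Footprint and RNA libraries of the same culture deviated together in 12 of 12 cultures (correlation 0.219 to 0.558), so values with a culture block are given where they change a call. Alternatives were DESeq2 1.42.0, limma 3.58.1 voom, other scaling, no filter, no batch term, a replicate block, the H2-DMb pair summed, leaving out each culture, and leaving out cultures with footprint libraries under 1000000 counts. Leaving out KO6 and WT6 and the molecule by batch contrasts were added after seeing the values. Members and gene lists were chosen with earlier results of these data known. All 8 members are named whatever their values; from other lists at most 4 genes past the threshold were named per comparison, by smallest p, and the 10 genes with the highest Pearson correlation to the group. Promoter sequences are from a table of RefSeq starts, of which the windows of 5 of the 8 members were used. H2-Ab1 and Ciita had no entry by symbol. The Cd74 window, on chromosome 18, was left out of the motif results given, so nothing is said of its motifs.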

Additional observations from a re-analysis of the deposited data

Results flagged for a closer look

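H2-DMa RNA in WT4 had a log2 CPM of 4.62, apart from the other 5 WT cultures: its gap to the nearest was 0.690 of the range of the 6, above the Dixon limit. WT4 is the only WT culture of batch 2, in which H2-DMa RNA was higher in all 4 cultures than in any other culture. Of 38 groups of values looked at, this was the 1 that stood out, and chance alone marks about 1 in 20.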

How the results depend on the processing

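Across the alternatives run, values of single class II genes kept direction and side of the threshold 1333 times, lost the call 42 times, gained it 24 times and turned 86 times. In total RNA the 7 calls of batch 3 against batch 2 held under each alternative run. Turned values concern chiefly the genotype differences, none of which was called with all cultures; without the shallow cultures, the turned values of H2-Ab1, Cd74 and Ciita RNA and of Cd74 footprints were called. The cause was not tested. Footprint depth was under 1000000 counts in 8 of 12 cultures (the shallow cultures), and the standard error of the genotype difference ran 0.155 to 0.438 in RNA and 0.215 to 0.553 in footprints (log2).

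KO over WT in total RNA called 2 genes in all, against 7 with DESeq2, 10 with no filter, 1 without KO6 and WT6 and 2740 (5 of them class II) without cultures under 1000000 footprint counts. H2-Aa and H2-Eb1 turned to -0.024 and -0.029 with DESeq2. With no batch term H2-Ab1 was 0.58, Cd74 1.16, H2-DMa 0.37, H2-DMb1 0.27 and Ciita 0.89. With the replicate block, which pairs KO and WT by number, they were 0.17, 0.46, 0.29, 0.22 and 0.52. Without the shallow cultures they were 0.91, 1.15, 0.21, 0.32 and 0.79. Ciita was 0.012 with voom and 0.036 without KO6 and WT6.

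KO over WT in footprints called 6 genes, against 3 with DESeq2, 159 with no filter, 3 with voom, 1 with no batch term, 1 with the replicate block and 1413 (4 of them class II) without the shallow cultures. Cd74 turned to 0.26 with voom, 0.54 with no batch term, 0.072 with the block and 1.41 without the shallow cultures. H2-DMa turned to 0.056 with no batch term, 0.00071 with the block and 0.23 without the shallow cultures. H2-DMb1 turned to -0.043 with voom, -0.20 with no batch term and -0.25 with the block. The numbers do not pair the genotypes by the rule used, since same-numbered KO and WT cultures correlated at 0.0274 to 0.807 in RNA and 0.0732 to 0.328 in footprints, below 0.1 in a pair of each.

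KO over WT in footprints relative to RNA called 1 gene, against 2 without the shallow cultures. With no batch term H2-Aa was -0.41, H2-Ab1 -0.25, H2-Eb1 -0.58 and H2-DMb1 -0.49. With the culture block H2-Eb1 was -0.042 and H2-DMb1 -0.065. With voom Cd74 was 0.26 and H2-DMb1 -0.15. Without the shallow cultures H2-Aa was -0.089, Cd74 0.28, H2-DMa 0.037 and H2-DMb1 -0.25.

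Batch 2 over batch 1 called 7 class II genes in RNA with DESeq2, 1 (Ciita) in footprints with no filter, and in footprints relative to RNA 2 without the shallow cultures and 5 with the culture block (2284 of all genes). Batch 3 over batch 1 called 0 class II genes in footprints without KO6 and WT6, and relative to RNA 151 genes with DESeq2 and 193 with the culture block; Cd74 turned to 0.18 without KO6 and WT6. Batch 3 over batch 2 called 1 class II gene in footprints without KO6 and WT6 (Ciita), and relative to RNA 1264 genes, 1 of them class II, with the culture block.

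Leaving out 1 culture at a time gave these ranges. Genes called between genotypes were 2 to 9 in RNA (most without KO1) and 1 to 269 in footprints (most without KO1, fewest without WT4). KO over WT in RNA ran -0.46 to 0.28 for H2-Aa, -0.43 to 0.28 for H2-Eb1, -0.46 to 0.067 for Cd74, -0.19 to 0.11 for H2-DMb1 and -0.55 to 0.052 for Ciita. In footprints it ran -0.10 to 0.78 for H2-Aa, -0.48 to 0.58 for H2-Ab1, -0.75 to 0.96 for H2-Eb1, -0.81 to 0.071 for Cd74 and -0.13 to 0.19 for H2-DMb1. Relative to RNA it ran -0.067 to 0.62 for H2-Ab1, -0.33 to 0.71 for H2-Eb1, -0.35 to 0.15 for Cd74, -0.44 to 0.15 for H2-DMa and -0.036 to 0.40 for H2-DMb1. Batch 2 over batch 1 called 1345 (without WT4) to 3041 genes and 4 to 7 class II genes in RNA, 597 to 1193 genes and 0 to 1 class II genes in footprints, and 412 to 1477 genes and 0 to 1 class II genes relative to RNA; in footprints H2-Aa ran -0.026 to 0.92, H2-Ab1 -0.11 to 1.02 and H2-Eb1 -0.58 to 1.19. Batch 3 over batch 1 had H2-DMb1 RNA at -0.39 to 0.070, and in footprints 990 to 1591 genes, 0 (without KO5) to 4 class II genes and H2-DMa at -0.63 to 0.036. Leaving out KO6, WT5 or WT6 left 1 class II gene called there, and WT1, WT2 or WT3 left 2. Relative to RNA it called 18 to 88 genes, with H2-DMa at -0.35 to 0.27. Batch 3 over batch 2 called 974 (without KO5) to 1760 genes and 1 to 5 class II genes in footprints, with H2-DMb1 at -0.37 to 0.38, and 298 to 762 genes relative to RNA. The genotype by batch test could not be fitted without the shallow cultures, where 4 cultures remain.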
